A study of Homo sapiens with 2 samples.

Results

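SNAREs are the membrane proteins that drive fusion of transport vesicles with their target membranes. The genes described here were taken from the table of all genes by symbol: syntaxins (STX), vesicle-associated SNAREs (VAMP), the SNAP-25 family, SEC22, VTI1, GOSR, BET1 and YKT6 proteins, the syntaxin-binding proteins (STXBP, SCFD1), USE1, and the disassembly factors NSF, NAPA, NAPB and NAPG. This rule used names alone and no measured value, and found 50 of 21115 genes. RNA was measured in HCT116, a human cell line established from a colorectal carcinoma, after 8 h with 1 µM CB-5083 or after 8 h with the solvent DMSO alone. CB-5083 blocks the ATPase p97, the product of VCP. Each treatment was sequenced as 1 library of polyadenylated RNA, so differences have no check by replicates, and no p-value is given.

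In a fusion reaction, 1 R-SNARE helix and Qa-, Qb- and Qc-SNARE helices on opposing membranes zip into a bundle. SM proteins guide the assembly, and the ATPase NSF with its SNAP adaptors takes the spent bundle apart. Each membrane of the secretory and endosomal routes uses its own set. NSF and p97 are related AAA ATPases, and p97 with its cofactor p47 is known to act with the Golgi syntaxin STX5 when Golgi cisternae fuse again after mitosis.

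The CB-5083 library held 31997716 estimated counts and the DMSO library 29273747. Levels are given as CPM, estimated counts scaled by depth and between the libraries by the TMM method. For the log2 ratio, 1 CPM was added to both levels before CB-5083 was divided by DMSO. A gene that reached 5 CPM in 1 library was called higher at a ratio of 1 or more and lower at -1 or less, a 2-fold difference. Each fold is given without the added 1 CPM, with a 95% exact counting interval that covers counting error only. The epithelial markers EPCAM, KRT8, KRT18 and CDH1 were at 243 to 501 CPM with CB-5083 and 66.7 to 433 CPM with DMSO, CDH1 alone past 2-fold, CEACAM5 was near 0, and the leukocyte genes PTPRC and CD3E were at 0 in both libraries. Of the genes listed as neuronal, RBFOX3, SYN1 and SNAP25 were below 1 CPM, whereas SYT1 was at 185 CPM with CB-5083 and 107 CPM with DMSO. The files place another transcript over 15 of the 50 genes, among them GOSR2, STX18, STXBP5, NAPA, SNAP29, STX6, VTI1A and VTI1B. Overlap was judged by whole gene spans with introns, and overlap of exons was not checked. Whether the counting used strand is not known here, so reads of such overlapping genes may be shared.

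SNARE machinery took 0.209% of the estimated counts with CB-5083 and 0.215% with DMSO. Of the 50 genes, 39 reached 5 CPM in 1 library, and of these 4 were higher, 1 was lower and 34 were neither. Over all 9543 genes that reached 5 CPM, 7.22% were higher and 4.91% lower, or 12.1% in either direction, and the 12.8% of SNARE machinery genes called in either direction lay near that. The median log2 ratio of the 39 genes was 0.24, against 0.09 over all genes with 5 CPM. At a 1.5-fold threshold 10 of the 39 were higher and 2 lower, beside 17.4% and 12.5% of all genes. The genes called higher at 2-fold were BET1, SCFD1, STX5 and GOSR2, and the gene called lower was STXBP5. Levels are scaled by depth and between the libraries, so they cannot show a change in total RNA per cell. As RNA comes from whole cultures, a change in all cells and a change in some cells cannot be told apart.

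**Figure D1:**
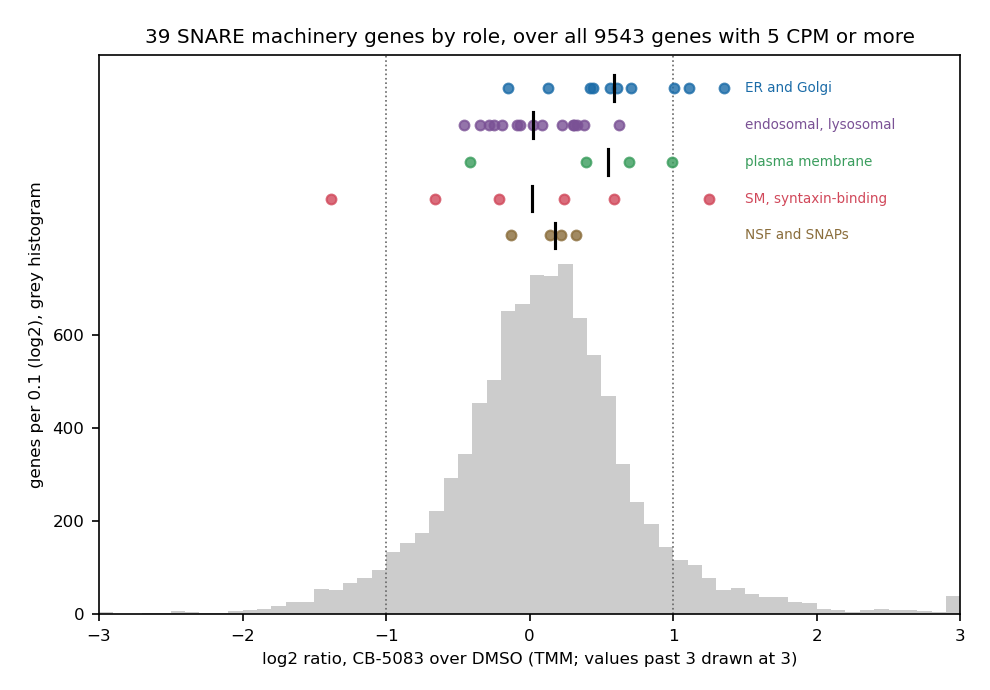
Log2 ratio of CB-5083 over DMSO (horizontal axis) for 39 SNARE machinery genes, a point per gene in a row per role with a black bar at each median, above a grey histogram of all 9543 genes with 5 CPM or more. The ER and Golgi SNAREs have a median of 0.59, and the 15 endosomal, lysosomal and autophagosomal SNAREs lie between -0.46 and 0.62.

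The SNAREs of the ER and Golgi held most of the genes called higher. Of 11 genes in this group 10 reached 5 CPM, and 3 of the 10 were higher, none was lower and 7 were neither, beside 7.22% of all genes higher. Their median log2 ratio was 0.59, and 9 of 10 had a ratio above 0, beside 5473 of all 9543 genes. Scaling by library totals lowers log2 ratios by up to 0.34. Then 8 of the 10 were above 0, their median was 0.25 and 1 gene was higher. Of the same 9543 genes, 3029 were then above 0 and 377 were higher. Summed over the group, the level was 633 CPM with CB-5083 and 425 CPM with DMSO. Under the same scaling the sum over all genes was 1125790 CPM with CB-5083 and 888266 CPM with DMSO.

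BET1, the Qc-SNARE of vesicles that leave the ER, was at 79.4 CPM with CB-5083 and 30.5 CPM with DMSO. That is 2.60-fold higher (2.42 to 2.81), the highest ratio of the 39 genes, and 96.16% of all genes with 5 CPM had a lower one. It was called higher under each of the scalings tried, library totals included (log2 ratio 1.02). The gene lies on chromosome 7 from 93592082 to 93633690 in hg19.

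STX5, the Qa-SNARE shared by ER-to-Golgi and intra-Golgi fusion, was at 18.4 CPM with CB-5083 and 7.98 CPM with DMSO. Its fold of 2.30 (1.98 to 2.68) rests on 522 estimated counts with CB-5083 and 263 with DMSO, and its interval includes 2. With library totals its log2 ratio was 0.79, short of the threshold. It lies on chromosome 11 from 62574332 to 62599563 (hg19). GOSR2, the Qb-SNARE also called membrin, was at 77.6 CPM with CB-5083 and 38.1 CPM with DMSO (2.04-fold, 1.90 to 2.19). This is the gene closest above the threshold, and 3 other ratios were below it: 0.67 by library totals, 0.92 by upper quartile scaling, and 0.94 as the authors' deposited table gives it. GOSR2 spans 45000486 to 45104994 of chromosome 17 (hg19), where the files also place RPRML.

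SEC22B, the R-SNARE that joins these 3 proteins on vesicles coated with COPII, was at 123 CPM with CB-5083 and 74.7 CPM with DMSO (1.64-fold, 1.56 to 1.73). This was not called. The files place 2 other transcripts over SEC22B on chromosome 1, so its reads may be shared, and its value is uncertain. Together the 4 members of the COPII vesicle complex had log2 ratios of 0.71 to 1.35, with a median of 1.06 that was 0.73 with library totals. This grouping by complex was made after the values were seen.

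The partners of STX5 within the Golgi lay lower than those at the COPII step. GOSR1, the Qb-SNARE of Golgi cisternae, was at 106 CPM with CB-5083 and 79.2 CPM with DMSO (1.34-fold, 1.27 to 1.41). BET1L, its Qc partner, was at 26.7 CPM with CB-5083 and 19.4 CPM with DMSO (1.38-fold, 1.24 to 1.53). YKT6, a lipid-anchored R-SNARE, was at 67.3 CPM with CB-5083 and 61.5 CPM with DMSO (1.09-fold, 1.028 to 1.17). None of these 3 was called, and YKT6 turned to a log2 ratio of -0.21 with library totals. The counting intervals of GOSR1 and BET1L do not reach that of GOSR2, which starts at 1.90.

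For traffic from the Golgi back to the ER, STX18, the Qa-SNARE of the ER membrane, was at 43.96 CPM with CB-5083 and 29.5 CPM with DMSO (1.49-fold, 1.37 to 1.62). USE1, its Qc partner, was under 5 CPM, at 2.64 CPM with CB-5083 and 2.40 CPM with DMSO. BNIP1, the Qb-SNARE of this complex, is not among the 50 genes and was at 19.3 CPM with CB-5083 and 10.7 CPM with DMSO (1.81-fold, 1.58 to 2.08). None of the complex was called. SEC22A, a relative of SEC22B that lacks a SNARE helix, was at 33.3 CPM with CB-5083 and 21.4 CPM with DMSO (1.55-fold, 1.41 to 1.71). SEC22C, another such relative, was at 54.7 CPM with CB-5083 and 60.7 CPM with DMSO. It was the one ER and Golgi gene of the 10 with a ratio below 0 under TMM scaling, and the files place NKTR and SS18L2 over it.

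**Figure D2:**
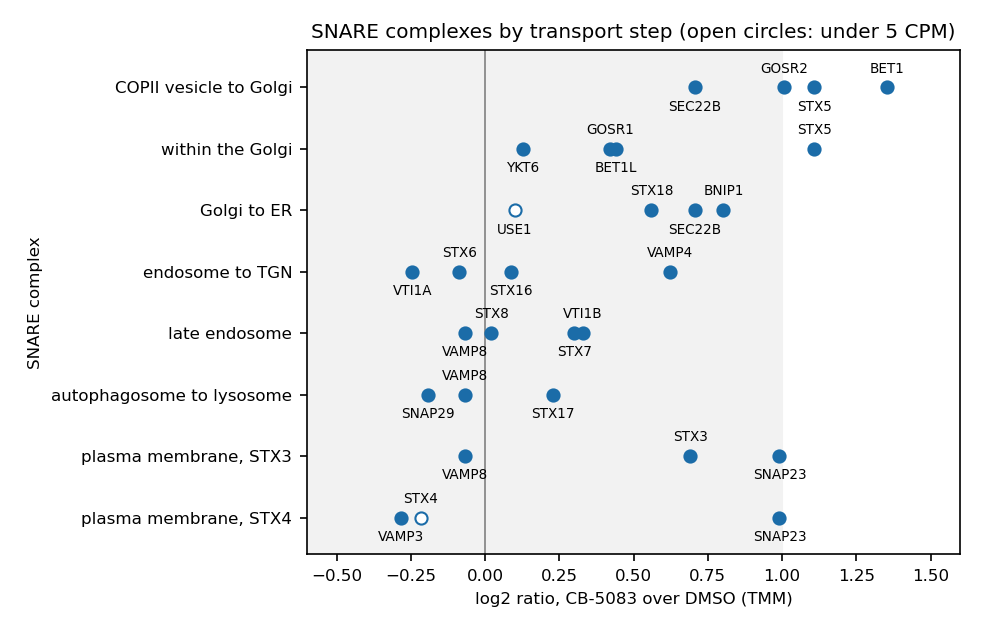
Log2 ratio of CB-5083 over DMSO (horizontal axis, TMM scaling) of the subunits of 8 SNARE complexes, grouped by transport step, with filled circles for genes with 5 CPM or more and the shaded band within 2-fold. The 4 subunits of the COPII vesicle complex lie between 0.71 and 1.35, and those of the late endosome complex between -0.07 and 0.33. STX5, SEC22B and SNAP23 are drawn in 2 complexes each and VAMP8 in 3.

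SCFD1, the SM protein known as Sly1 that binds STX5 and STX18, was higher too. It was at 238 CPM with CB-5083 and 99.6 CPM with DMSO, that is 2.39-fold (2.29 to 2.49), and 95.53% of all genes with 5 CPM had a lower ratio. With library totals its log2 ratio was 0.91 and it was not called, whereas in the authors' deposited table it was 1.16. SCFD1 lies on chromosome 14 from 31091521 to 31205018 (hg19). Per kilobase of transcript it had the highest level of the 44 genes that reached 1 CPM in a library, at 108 CPM per kilobase with CB-5083. With DMSO it ranked 3, at 45.1 CPM per kilobase, after VAMP3 at 74.8 and GOSR1 at 64.4.

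The 250 bases before the RefSeq transcript starts are shown for the 4 genes called higher, which were chosen by that call. Whether XBP1, a transcription factor of the ER stress response, acts on them was not tested. XBP1 is known to bind the element TGACGTGG (UPRE core) and the shorter core ACGTG. Capitals mark these matches on either strand, and ACGTG also lies inside TGACGTGG. The windows, from RefSeq in GRCh38.p14, are chr7:94004356-94004605 on the minus strand for BET1, chr17:46922910-46923159 on the plus strand for GOSR2, chr14:30622069-30622318 on the plus strand for SCFD1 and chr11:62832052-62832301 on the minus strand for STX5.
BET1: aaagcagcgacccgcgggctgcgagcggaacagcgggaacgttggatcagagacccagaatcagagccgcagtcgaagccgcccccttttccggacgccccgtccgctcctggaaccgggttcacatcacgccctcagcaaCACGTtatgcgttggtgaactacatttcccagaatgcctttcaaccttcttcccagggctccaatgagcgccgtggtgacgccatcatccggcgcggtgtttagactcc
GOSR2: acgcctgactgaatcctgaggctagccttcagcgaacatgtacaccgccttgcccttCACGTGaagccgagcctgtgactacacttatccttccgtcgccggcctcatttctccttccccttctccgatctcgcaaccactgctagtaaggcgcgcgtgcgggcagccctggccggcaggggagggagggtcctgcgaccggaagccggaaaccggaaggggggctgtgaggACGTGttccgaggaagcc
SCFD1: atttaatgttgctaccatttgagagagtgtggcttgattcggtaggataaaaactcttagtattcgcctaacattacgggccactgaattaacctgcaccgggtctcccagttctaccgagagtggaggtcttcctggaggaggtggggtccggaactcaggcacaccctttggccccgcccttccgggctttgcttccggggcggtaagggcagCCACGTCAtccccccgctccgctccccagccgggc
STX5: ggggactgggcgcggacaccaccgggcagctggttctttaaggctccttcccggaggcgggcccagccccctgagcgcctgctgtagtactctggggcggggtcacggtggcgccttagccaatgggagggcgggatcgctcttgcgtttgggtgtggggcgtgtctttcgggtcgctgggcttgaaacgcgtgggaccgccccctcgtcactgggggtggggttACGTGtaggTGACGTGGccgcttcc

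STX5 held TGACGTGG 16 bases before its start, and SCFD1 held its reverse complement CCACGTCA 35 bases before the start shown. SCFD1 has another RefSeq start 65 bases upstream, and the same site then lies inside the transcript. Of the 43 SNARE machinery genes with a RefSeq window of 300 bases, running from 250 bases before to 50 after the start, STX5 and SCFD1 were the 2 that held TGACGTGG, or 4.65%. It was in 1.29% of 6876 genes with 5 CPM and a window, and in 0.729% of all 35116 windows. ACGTG was in the windows of 18 of the 43 genes, BET1 and GOSR2 among them, and in 34% of the 6876 genes. The window of STXBP5, the gene called lower, held neither. The windows of the 43 genes held no match to ERSE or ERSE-II, the ER stress elements with a CCAAT or ATTGG box beside CCACG. Nor did they match TGATGCAAT or TGATGAAAC (amino acid response elements). In that order, the motifs were in 0.16%, 0.189%, 0.145% and 0.116% of the 6876 genes. A match is a string of letters in the reference and no measurement of binding.

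**Figure D3:**
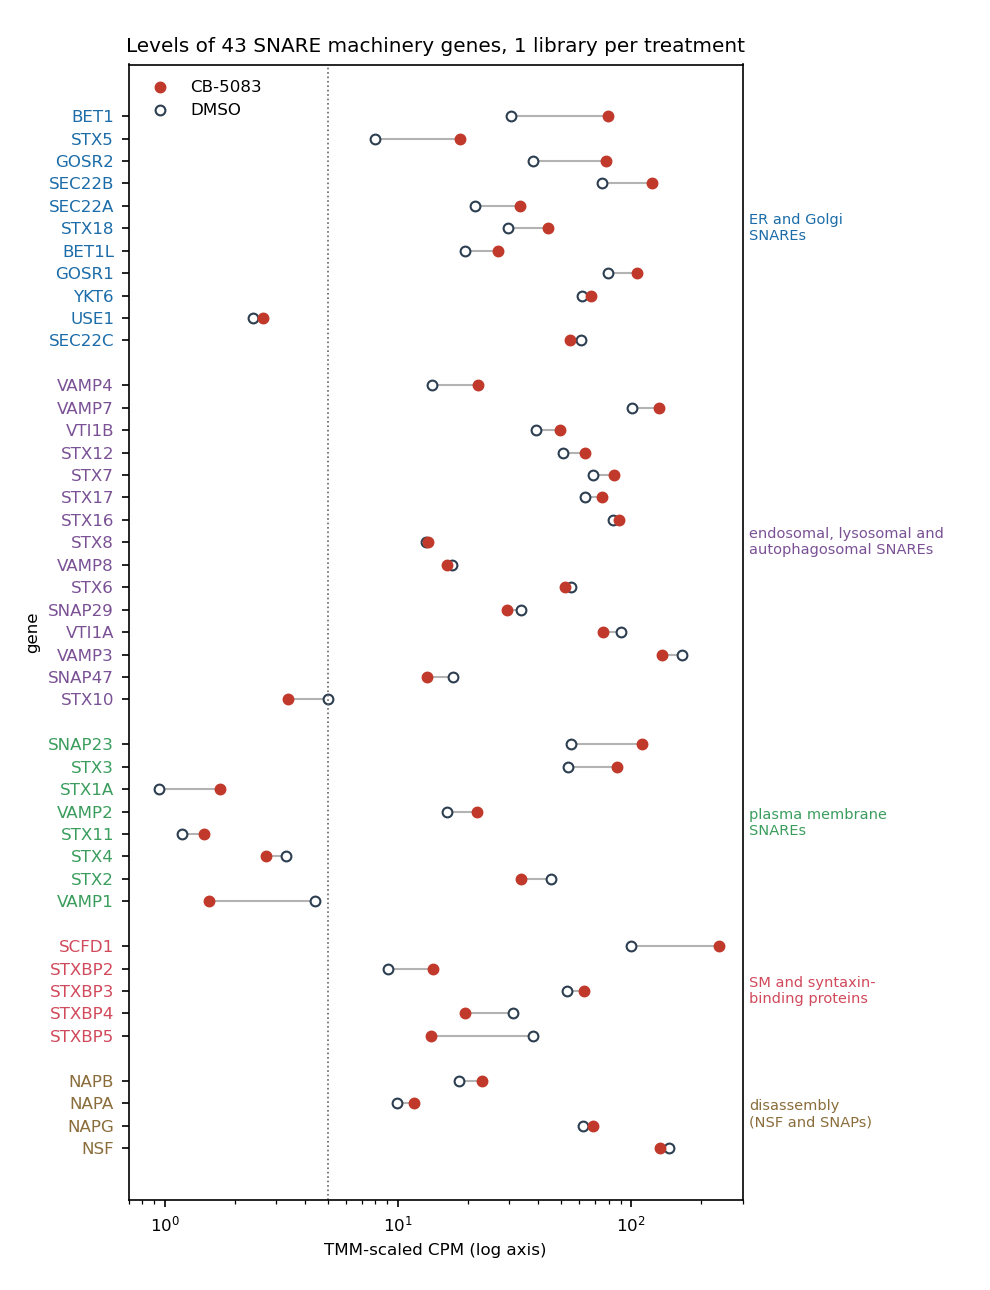
TMM-scaled CPM (horizontal log axis) of 43 SNARE machinery genes that reached 1 CPM in a library, with a filled red circle for CB-5083, an open circle for DMSO and a dotted line at 5 CPM. BET1, STX5, GOSR2 and SCFD1 stand to the right with CB-5083, STXBP5 to the left, and most endosomal SNAREs have nearly overlapping circles.

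Other syntaxin-binding proteins ran in both directions. STXBP5, the protein tomosyn that blocks SNARE assembly at the plasma membrane, was lower at 13.9 CPM with CB-5083, against 37.7 CPM with DMSO, that is 2.72-fold (2.43 to 3.06). Only 1.96% of all genes with 5 CPM had a lower ratio, and STXBP5 was called lower under each of the scalings tried. It spans 147525494 to 147711612 of chromosome 6 (hg19), where the files also place BC043173 and LOC729178. STXBP4, which binds STX4, was at 19.3 CPM with CB-5083 and 31.2 CPM with DMSO (1.61-fold lower, 1.45 to 1.79), and with library totals its log2 ratio of -0.99 was just short of the threshold. STXBP3, an SM protein of the plasma membrane, was at 62.7 CPM with CB-5083 and 53.0 CPM with DMSO. STXBP2, an SM protein of epithelial cells, was at 14.1 CPM with CB-5083 and 9.04 CPM with DMSO (1.56-fold, 1.34 to 1.81). Neither of the pair was called, and STXBP3 turned to a log2 ratio of -0.10 with library totals. STXBP6, called amisyn, had 20 estimated counts with CB-5083 and 7 with DMSO (3.31-fold, 1.35 to 9.27), and STXBP5L had none in either library.

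At the plasma membrane, 4 of 12 SNARE genes reached 5 CPM. None of the 4 was called, beside 12.1% of all genes called in either direction. SNAP23, which supplies the Qb and Qc helices outside neurons, was at 111 CPM with CB-5083 and 55.4 CPM with DMSO (2.01-fold, 1.89 to 2.13). It is the gene closest below the threshold, with a log2 ratio of 0.99 that passed 1 with median-of-ratios scaling, with a pseudocount of 0.1 CPM and with none. GOSR2 and SNAP23 therefore differ in their call and not beyond counting error in their fold. STX3, a syntaxin of the apical membrane, was at 87.1 CPM with CB-5083 and 53.6 CPM with DMSO (1.63-fold, 1.53 to 1.73). STX2 was at 33.8 CPM with CB-5083 and 45.4 CPM with DMSO (1.34-fold lower, 1.24 to 1.46). VAMP2, a synaptobrevin, was at 21.7 CPM with CB-5083 and 16.3 CPM with DMSO (1.33-fold, 1.19 to 1.501). Among syntaxins of the plasma membrane STX3 thus had a positive and STX2 a negative log2 ratio, under library totals too (0.35 and -0.75).

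The other 8 plasma membrane genes lay under 5 CPM in both libraries. VAMP1, the other synaptobrevin, was at 1.55 CPM with CB-5083 and 4.40 CPM with DMSO, from 44 estimated counts with CB-5083 and 145 with DMSO (2.84-fold lower, 2.02 to 4.08). It was called lower with a filter of 1 CPM in place of 5 CPM, and the files place TAPBPL over it. STX4, the basolateral syntaxin, was at 2.71 CPM with CB-5083 and 3.31 CPM with DMSO. STX1A, a neuronal syntaxin, was at 1.72 CPM with CB-5083 and 0.941 CPM with DMSO (1.83-fold, 1.15 to 2.97). Its values rest on 49 estimated counts with CB-5083 and 31 with DMSO. The files place 7 other transcripts over STX1A, so its reads may be shared. STX11, known from cytotoxic lymphocytes, was at 1.47 CPM with CB-5083 and 1.18 CPM with DMSO. The counting intervals of STX4 (0.604 to 1.11) and STX11 (0.788 to 1.98) include a fold of 1. The neuronal SNAP25 had 2 estimated counts with CB-5083 and 12 with DMSO, and VAMP5, known from muscle, had none in either library. STX19 had 1 with CB-5083 and 6 with DMSO. A count of 0 allows up to 3 counts, or 0.106 CPM with CB-5083 and 0.091 CPM with DMSO.

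All 15 SNAREs of endosomes, lysosomes and autophagosomes reached 5 CPM. None was called higher or lower, beside 12.1% of all genes called in either direction. Their median log2 ratio was 0.02, with 8 above 0 and 7 below, and with library totals 2 above and 13 below. Of all 9543 genes, 5473 lay above 0 and 4070 below, and with library totals 3029 above and 6514 below. Summed, the 15 SNAREs stood at 853 CPM with CB-5083 and 817 CPM with DMSO. The sum over all genes was 1125790 CPM with CB-5083 and 888266 CPM with DMSO. VAMP4, an R-SNARE of the trans-Golgi network (TGN), had the highest ratio, at 21.99 CPM with CB-5083 and 13.9 CPM with DMSO (1.58-fold, 1.40 to 1.78). Its partner STX16, a Qa-SNARE, was at 88.6 CPM with CB-5083 and 83.3 CPM with DMSO. STX6, a Qc-SNARE, was at 52.2 CPM with CB-5083 and 55.4 CPM with DMSO. VTI1A, a Qb-SNARE, was at 76.0 CPM with CB-5083 and 90.3 CPM with DMSO (1.19-fold lower, 1.12 to 1.26). These 4 genes do not share a direction. STX10, another TGN syntaxin, had the lowest ratio of the 15, at 3.38 CPM with CB-5083 and 5.01 CPM with DMSO (1.48-fold lower, 1.15 to 1.93).

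The late endosomal complex varied little. STX7, its Qa-SNARE, was at 84.4 CPM with CB-5083 and 68.4 CPM with DMSO. VTI1B, its Qb-SNARE, was at 49.4 CPM with CB-5083 and 39.1 CPM with DMSO, and STX8, its Qc-SNARE, at 13.4 CPM with CB-5083 and 13.2 CPM with DMSO. VAMP8, the R-SNARE it shares with autophagosome fusion, was at 16.1 CPM with CB-5083 and 17.0 CPM with DMSO. The intervals of STX8 (0.883 to 1.17) and VAMP8 (0.840 to 1.08) include a fold of 1. STX17, the syntaxin of closed autophagosomes, was at 74.6 CPM with CB-5083 and 63.6 CPM with DMSO (1.17-fold, 1.10 to 1.25). SNAP29, its partner, was at 29.5 CPM with CB-5083 and 33.8 CPM with DMSO (1.15-fold lower, 1.05 to 1.26). The autophagosomal set of STX17, SNAP29 and VAMP8 had log2 ratios of -0.19 to 0.23.

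Of the R-SNAREs in this group, VAMP3, the cellubrevin of recycling endosomes, was at 135 CPM with CB-5083 and 165 CPM with DMSO (1.22-fold lower, 1.17 to 1.27). VAMP7, of late endosomes and lysosomes, was at 131 CPM with CB-5083 and 100.5 CPM with DMSO (1.30-fold, 1.24 to 1.37). VAMP7 lies in the pseudoautosomal region and the files list it on chromosome Y alone. STX12, of recycling endosomes, was at 63.4 CPM with CB-5083 and 51.0 CPM with DMSO. SNAP47 was at 13.4 CPM with CB-5083 and 17.3 CPM with DMSO (1.29-fold lower, 1.13 to 1.47), with JMJD4 placed over it in the files. Across classes of helix, the median log2 ratios were 0.30 for 8 Qa-, 0.37 for 4 Qb-, 0.02 for 5 Qc- and 0.38 for 7 R-SNAREs with 5 CPM. The median over all genes was 0.09. For 3 members of the SNAP-25 family the median was -0.19, with a range from -0.35 in SNAP47 to 0.99 in SNAP23.

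The disassembly factors were not called either, beside 12.1% of all genes called in either direction. NSF, the ATPase, was at 133 CPM with CB-5083 and 145 CPM with DMSO (1.09-fold lower, 1.05 to 1.14). Its row in the files also covers an alternative haplotype of chromosome 17, so its value is uncertain. NAPA, the adaptor alpha-SNAP, was at 11.7 CPM with CB-5083 and 9.89 CPM with DMSO (1.18-fold, 1.01 to 1.38). NAPB, beta-SNAP, was at 23.01 CPM with CB-5083 and 18.2 CPM with DMSO. NAPG, gamma-SNAP, was at 68.3 CPM with CB-5083 and 61.9 CPM with DMSO. The 4 genes had log2 ratios of -0.13 to 0.32. With library totals all 4 lay below 0, where the median over all genes was -0.25. Their sums were 236.1 CPM with CB-5083 and 235.5 CPM with DMSO. These stand beside all-gene sums of 1125790 CPM with CB-5083 and 888266 CPM with DMSO.

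**Figure D4:**
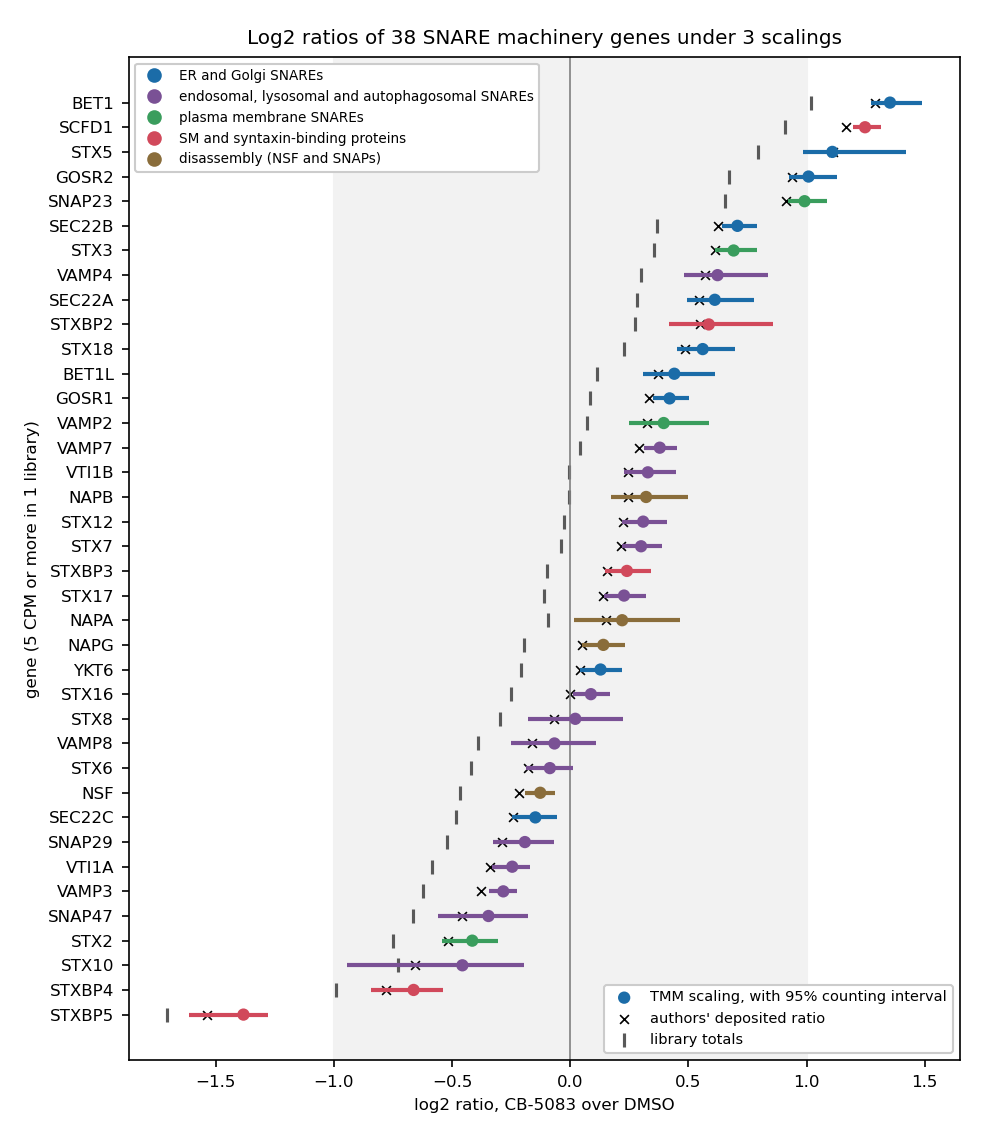
Log2 ratio of CB-5083 over DMSO for 38 SNARE machinery genes with 5 CPM or more, in order, as circles with TMM scaling, crosses for the authors' deposited ratio and bars for library totals. Horizontal lines are 95% counting intervals of the fold without a pseudocount, and the shaded band lies within 2-fold. BET1 and STXBP5 are outside the band with all 3 scalings, whereas GOSR2, of the 3 scalings drawn, leaves it with TMM alone.

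Per kilobase of transcript the order of levels altered at the top. With CB-5083 the order was SCFD1, GOSR1, VAMP3, BET1 and VAMP7, at 108, 86.4, 61.4, 52.8 and 52.5 CPM per kilobase. With DMSO it was VAMP3, GOSR1, SCFD1, SEC22C and VAMP7, at 74.8, 64.4, 45.1, 40.9 and 40.3 CPM per kilobase. BET1 and VAMP7 with CB-5083, and SEC22C and VAMP7 with DMSO, are too close to be ordered. BET1 ranked 4 with CB-5083 and 15 with DMSO, where it was at 20.3 CPM per kilobase. STX5 ranked 25 of 44 with CB-5083, at 10.3 CPM per kilobase, and 35 with DMSO, at 4.46.

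Of 63 genes outside the rule that tether vesicles or regulate SNAREs, 61 were in the files under the names used and 51 reached 5 CPM. Of these 3 were higher, 1 was lower and 47 were neither, beside 7.22% of all genes higher and 4.91% lower. Their median log2 ratio was 0.07, which lies near the 0.09 of all genes. TRAPPC6B, a subunit of the TRAPP tether, was at 84.7 CPM with CB-5083 and 38.8 CPM with DMSO (2.18-fold, 2.04 to 2.34). USO1, the Golgi tether p115 that binds COPII vesicles, was at 514 CPM with CB-5083 and 250 CPM with DMSO (2.06-fold, 2.003 to 2.12). EXOC6B, an exocyst subunit, was at 33.9 CPM with CB-5083 and 16.3 CPM with DMSO (2.08-fold, 1.87 to 2.32). By library totals their log2 ratios were 0.69 to 0.77, and none of the 3 was called. SYT7, a calcium sensor of lysosome exocytosis, was the gene called lower, at 5.73 CPM with CB-5083 and 14.5 CPM with DMSO (2.53-fold, 2.12 to 3.05). COG8, a subunit of the COG tether, came next, at 5.42 CPM with CB-5083 and 11.8 CPM with DMSO, 2.17-fold lower (1.80 to 2.64). Its log2 ratio of -0.99 became -1.30 by library totals, past the threshold.

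Tethers of the early secretory route ranged widely. The counts below stand beside 7.22% of all genes higher and 4.91% lower. The 9 Golgi tethers had a median log2 ratio of 0.52, from -0.99 in COG8 to 1.04 in USO1, with 1 higher, none lower and 8 neither. The NRZ tether, which receives vesicles at the ER for the STX18 complex, had ratios of 0.43 to 0.46 in its 3 genes NBAS, ZW10 and RINT1, and none was called. Of the 9 exocyst genes 1 was higher and 8 were neither (median 0.01). The 5 HOPS and CORVET genes with 5 CPM, which tether at endosomes, had a median of 0.07 and none was called. The 3 GARP genes had ratios of -0.63 to 0.04. TRAPP gave 1 higher and 10 neither of 11 (median 0.11). By library totals none of the 11 was higher and 1 was lower. With the filter kept as under TMM scaling, 377 of all 9543 genes were then higher and 964 lower. The TRAPP gene lower by library totals, TRAPPC12, was at 2.81 CPM with CB-5083 and 5.70 CPM with DMSO (2.03-fold lower, 1.55 to 2.67). It reached 5 CPM with DMSO alone. Its log2 ratios were -0.81 by TMM and -1.08 by library totals. The other SM genes VPS33A, VPS33B, VPS45 and SCFD2 were not called, so SCFD1 was the 1 SM gene past 2-fold under TMM scaling.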

How the data were processed

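Per the labels, RNA was isolated from HCT116 cells and made into stranded mRNA libraries with a commercial kit, 1 per treatment. RSEM 1.2.0 and hg19 are listed in the submitters' processing notes. Not given in the sources used here are the aligner, the scaling and whether counting used strand. Each gene has 1 deposited signal per library, whose 75th percentile (999.89 with CB-5083, 999.73 with DMSO) lies near 1000, the pattern that estimated counts scaled to an upper quartile give. Division by 1 step per library (1.1752 and 1.079) gave estimated counts. Of values up to 20 counts, 72.2% and 72.1% came out whole within 0.02, so the remainder are fractional. The log2 ratio that the authors deposited equals that of their CB-5083 over DMSO signal, within 2.4e-09.

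1 of 21116 rows held no value. CPM used TMM factors of 0.8883 for CB-5083 and 1.1258 for DMSO (trims of 30% and 5%). The pseudocount was 1 CPM and the filter 5 CPM. Folds have Clopper-Pearson intervals on rounded estimated counts. Every member with 1 CPM in a library is named with both values, except that a few genes are not reported here by name, though they stand in the counts and medians. Partner genes are named when called at 2-fold or among the 2 highest or lowest, and BNIP1 and TRAPPC12 were added after their values were seen. The members and lists were chosen with earlier results of these data known. Transcript lengths are medians over GENCODE 29 transcripts matched by RefSeq accession. Promoter windows come from RefSeq on GRCh38.p14, and no coordinates were converted between builds. hg19 starts are counted from 1. The scripts were tested on simulated data. Scripts ran in Python 3.11.15 with scipy 1.17.1, pandas 2.3.3, numpy 2.4.6 and matplotlib 3.10.9. Alternatives to the scaling, pseudocount, filter, threshold and source of the ratio are in the closing section.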

Additional observations from a re-analysis of the deposited data

How the results depend on the processing

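With 1 library per treatment the values have no replicate error, and the counting intervals understate the uncertainty of any difference. Scaling decided most calls of SNARE machinery genes. With library totals, 1 gene in place of 4 was higher (BET1), the median log2 ratio turned from 0.24 to -0.0934, against -0.25 over all genes, and 371 of all genes were higher and 994 lower in place of 689 and 469. A 1.5-fold threshold gave 10 SNARE machinery genes higher and 2 lower, and 1660 and 1195 of all genes. A filter of 1 CPM, and no filter, each gave 2 lower, the second being VAMP1. The authors' deposited log2 ratio gave 722 of all genes lower. Over 8 settings of the scaling, pseudocount, filter and source of the ratio, 2 of 44 genes were called in each (BET1 and STXBP5), 5 in some (STX5, SCFD1, GOSR2, SNAP23 and VAMP1) and 37 in none, while 13 altered the sign of their ratio, none of them a called gene. No paired analysis was possible because each group has 1 library. Depth limits the 6 genes under 1 CPM, which rest on at most 20 estimated counts a library. Of these, STXBP6 and SNAP25 have counting intervals that leave out a fold of 1.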

Other observations

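p97 and NSF belong to the same branch of AAA ATPases, and the other members of that branch and the fusion proteins that need no SNAREs were looked at after the values were seen. VCP, which encodes p97, was at 269 CPM with CB-5083 and 148 CPM with DMSO, a log2 ratio of 0.86. NSF, at -0.13, and SPATA5, at -0.24, lay on the other side of 0. NVL, an ATPase of ribosome assembly, was at 35.1 CPM with CB-5083 and 26.5 CPM with DMSO. Of the 6 ATPase genes of this list with 5 CPM, none was called, beside 12.1% of all genes called in either direction.

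The cofactors with which p97 acts in Golgi and ER membrane fusion were not called. NSFL1C, which encodes p47, was at 38.8 CPM with CB-5083 and 34.9 CPM with DMSO. VCPIP1, a deubiquitinase of the same reaction, was at 77.1 CPM with CB-5083 and 67.8 CPM with DMSO. UBXN2B, which encodes the p47 relative p37, was at 78.9 CPM with CB-5083 and 72.9 CPM with DMSO. Their log2 ratios of 0.11 to 0.18 turned to -0.22 to -0.15 with library totals, where the median over all genes was -0.25. Among GTPases that fuse membranes without SNAREs, ATL3, an atlastin of the ER, was at 39.4 CPM with CB-5083 and 27.2 CPM with DMSO, and ATL2 at 144 CPM with CB-5083 and 163 CPM with DMSO. The mitochondrial fusion genes MFN1, MFN2 and OPA1 had log2 ratios of 0.09, 0.40 and 0.14, and none was called.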
